A study of Mus musculus with 2 samples.

Results

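The genes of major histocompatibility complex (MHC) class II presentation were followed in sorted mouse microglia. They were 9 genes, H2-Aa, H2-Ab1, H2-Eb1, H2-DMa, H2-DMb1, H2-DMb2, H2-Oa, Cd74 and Ciita, taken as the rows of both sham count files whose Ensembl identifiers map to these symbols, out of 53801 genes listed. All 9 had at least 10 counts in each library. The microglia came from Cx3cr1(CreER/wt) mice on a C57BL/6 background, which carry an inducible Cre recombinase in one allele of Cx3cr1 and a normal second allele, and which served the study as wild-type (WT) controls. Every mouse received tamoxifen at 75 mg/kg daily for 4 days, and sham surgery followed 14 days after the first injection. The series describes them as males of 8 to 10 weeks, whereas the study's methods give an older range and both sexes. At 3 days after surgery the CD11c–Ly6G–CD11b+CD45low cells of the left hemisphere of 1 mouse were sorted for each of the 2 libraries, sham library 1 and sham library 2. The libraries made after middle cerebral artery occlusion were not analysed here. The values below therefore give the level of the class II genes at the sham state and its spread between 2 mice, with no test of a condition.

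MHC class II molecules are pairs of an alpha and a beta chain that carry peptides of swallowed proteins to the cell surface, where CD4+ T cells read them. The chains fold in the endoplasmic reticulum around the invariant chain, proteases in endosomes trim that chain to a short peptide called CLIP, and the DM molecule exchanges CLIP for antigen while the DO molecule restrains DM. The coactivator encoded by Ciita sits on factors bound to X and Y box sequences before the class II genes and is needed for their transcription. Dendritic cells, B cells and macrophages are the classical presenters, whereas resting microglia are known for low surface class II that rises in inflamed brain.

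Library 1 held 23381026 counts on genes and library 2 held 41142609, so counting error was smaller in library 2. Levels are given as counts on a gene per 1000000 counts on all genes (CPM). Where a gene has a count of 0, up to 3 counts remain possible, a limit of 0.128 CPM in library 1 and 0.0729 CPM in library 2. The libraries stood apart in 2 respects. The 10 neutrophil markers, among them S100a8, S100a9 and Ly6g, made up 0.432% of library 1 and 5.91% of library 2, although the sort excluded Ly6G. For the 13445 genes that reached 10 counts in each library (counted genes), the median log2 ratio of library 2 over library 1 was -0.26, with quartiles of -1.03 and 0.27, and it depended on transcript length. The median was 0.17 for genes whose longest transcript had 1656 to 2142 bases and -1.05 for those of 6440 bases or more. The 10 microglia markers, among them Tmem119 and P2ry12, were all counted and summed to 39111 CPM (library 1) and 44410 CPM (library 2), so both libraries carried the labelled cell type.

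Together the 9 class II genes took 0.353% of all counts in library 1 and 0.389% in library 2. Their summed level was 3529 CPM in library 1 (95% interval 3505 to 3553) and 3893 CPM in library 2 (3874 to 3912), or 3711 ± 257 CPM (SD, n = 2). The spread between mice depends on the scaling, and with TMM library sizes, a scaling by the bulk of genes, the SD of this sum was 713. Intervals of levels are exact Poisson intervals or, for sums, Wilson intervals, and all intervals describe counting error alone, since reads amplified from the same molecule are counted separately. In a bulk sample, fewer cells that express a gene and less RNA per cell cannot be told apart. The classical chains supplied 43.0% of the class II counts in library 1 and 55.4% in library 2, and the invariant chain supplied 37.8% (Wilson interval 37.5 to 38.1) and 24.5% (24.3 to 24.7). The DM chains supplied 18.1% and 19.2%, and H2-Oa and Ciita each stayed below 1% in both libraries.

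**Figure D1:**
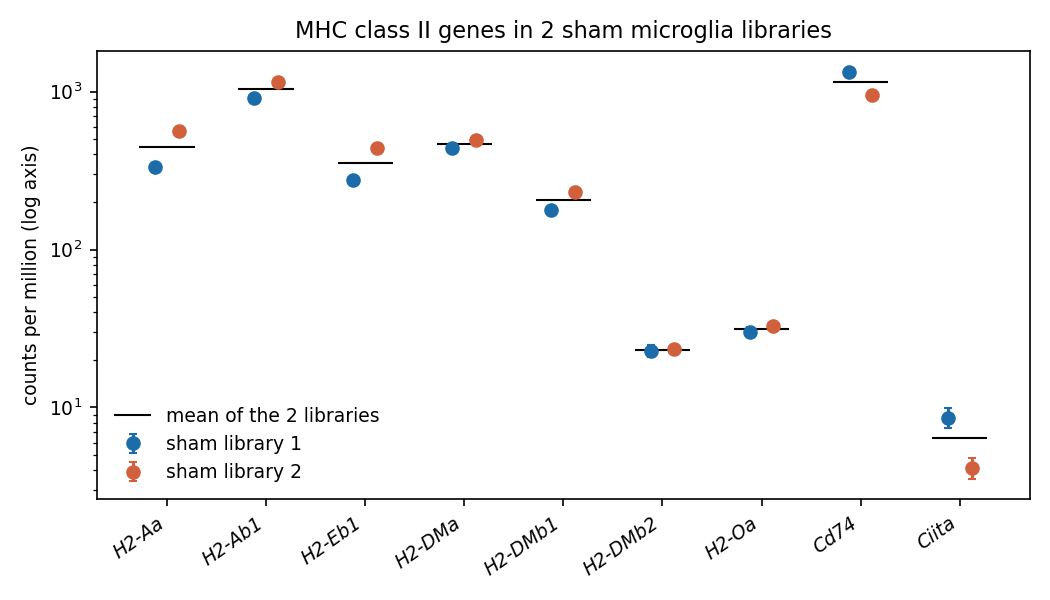
Level of each class II gene in CPM (log axis) in sham library 1 and sham library 2. Points are libraries with exact 95% Poisson intervals, most of them smaller than the point, and bars are the means of the 2 libraries. H2-Ab1 and Cd74 lie between 911 and 1334 CPM, H2-DMb2 and H2-Oa between 22.7 and 32.9 CPM, and Ciita at 8.60 and 4.13 CPM.

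H2-Aa, H2-Ab1 and H2-Eb1 encode the classical surface chains, and all of them had more CPM in library 2. H2-Ab1, the I-A beta chain (GRCm38 chromosome 17, 34263209 to 34269418, plus strand), had 21296 counts in the first library and 47531 in the second, or 911 and 1155 CPM and 1033 ± 173 CPM (SD, n = 2). Its partner H2-Aa, the I-A alpha chain (chromosome 17, 34282744 to 34287827, minus strand), had 7784 and 23231 counts, or 333 and 565 CPM and 449 ± 164 CPM (SD, n = 2). H2-Eb1, which encodes an I-E beta chain (chromosome 17, 34305877 to 34316199, plus strand), had 6408 and 17971 counts, or 274 and 437 CPM and 355 ± 115 CPM (SD, n = 2). The counting intervals of the 2 libraries did not overlap for any of these chains. The distance between the 2 mice was widest for H2-Aa, at 1.70-fold, narrower for H2-Eb1 at 1.59-fold and narrowest for H2-Ab1 at 1.27-fold. I-E molecules also need an alpha chain, and C57BL/6 mice are known not to make it. H2-Ea-ps, under which the annotation lists that gene (chromosome 17, 34342933 to 34344643), had 0 counts in both libraries, which allows up to 0.128 CPM and 0.0729 CPM. H2-Eb2, another beta chain gene (chromosome 17, 34325665 to 34340229), had 0 counts in library 1 and 1 count in library 2. H2-Eb1 thus had at least 6408 counts in each library while its alpha chain partner had none.

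Summed, the DM chains were 1.17-fold higher in library 2, beside 1.42-fold for the classical chains. H2-DMa, the alpha chain of DM (chromosome 17, 34135182 to 34139101, plus strand), had 10245 and 20196 counts, or 438 and 491 CPM and 465 ± 37.3 CPM (SD, n = 2). H2-DMb1, a beta chain of DM (chromosome 17, 34153072 to 34160230, plus strand), had 4159 and 9549 counts, or 178 and 232 CPM and 205 ± 38.3 CPM (SD, n = 2). H2-DMb2, the other DM beta chain gene (chromosome 17, 34143307 to 34151553, plus strand), had 531 and 967 counts, or 22.7 and 23.5 CPM and 23.1 ± 0.561 CPM (SD, n = 2), with an SD of 3.40 by TMM. For H2-DMb2 the counting intervals of the 2 libraries overlapped, and for H2-DMa and H2-DMb1 they did not. The beta chain genes are near copies, so reads can be ambiguous between them. Their longest transcripts were identical at 94.6% of 1219 aligned bases. Of the distinct 75-base stretches in the transcripts of each gene, 75 bases being the read length, 254 of 1604 (15.8%) of H2-DMb1 were also found in H2-DMb2. How the counting treated reads that match both genes is not given in the sources used here, so the split between H2-DMb1 and H2-DMb2 is uncertain. The other 7 genes shared no such stretch with another gene.

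H2-Oa, the alpha chain of DO (chromosome 17, 34092340 to 34095234, plus strand), had 706 and 1352 counts. It reached 30.2 CPM in library 1 (28.0 to 32.5) and 32.9 CPM in library 2 (31.1 to 34.7), or 31.5 ± 1.89 CPM (SD, n = 2), with overlapping counting intervals and an SD of 5.76 by TMM. Its partner H2-Ob, the DO beta chain (chromosome 17, 34238903 to 34245907), is not among the 9 and had 925 and 2129 counts, or 39.6 and 51.7 CPM. Both chains of DO were thus detected in each mouse. The span of H2-Oa lies inside the gene BC051537 of the opposite strand, which had 2 and 11 counts, and the strand setting of the counting is not given in the sources used here.

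Stretches around the RefSeq starts of these genes are printed to show how letters of the X and Y boxes are spaced. RefSeq windows from 250 bases before to 50 bases after a gene start (GRCm38.p6) were found for 6 of the 9 genes, H2-Aa, H2-Eb1, H2-DMa, H2-DMb1, H2-DMb2 and H2-Oa. The X box was searched as CCNNGNNAC and, after the data had been seen, as AACNNATGA, and the Y box as GATTGG, each on both strands. The X spellings can overlap, since the first ends and the second starts with AAC in H2-DMb1 and H2-Ob. In capitals are the Y box and the X spelling paired with it, 5′ to 3′ on the strand of the gene, within 150 bases. For H2-DMb1 only 30 bases with its X letters are shown, and the Y box lies beyond them. Left in lower case are an unpaired match of the first spelling in H2-Ob and the second spelling where it overlaps the first. A match of the Y box on the other strand in H2-Eb1 is in lower case too. By the deposited gene models the H2-DMb1 and H2-DMb2 stretches lie inside the gene span, and those of H2-Oa and H2-Aa reach its first bases.
H2-Oa, chr17:34092191-34092340, plus strand: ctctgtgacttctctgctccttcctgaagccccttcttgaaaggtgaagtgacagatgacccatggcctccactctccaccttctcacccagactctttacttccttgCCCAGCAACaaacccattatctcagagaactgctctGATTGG
H2-Ob, chr17:34238753-34238902, plus strand: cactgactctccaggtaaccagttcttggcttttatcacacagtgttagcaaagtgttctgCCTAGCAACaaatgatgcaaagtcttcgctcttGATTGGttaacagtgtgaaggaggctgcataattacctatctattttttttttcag
H2-Eb1, chr17:34305717-34305866, plus strand: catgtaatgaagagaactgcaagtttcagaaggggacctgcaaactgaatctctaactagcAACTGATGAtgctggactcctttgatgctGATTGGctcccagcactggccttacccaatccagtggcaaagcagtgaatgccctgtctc
H2-DMb2, chr17:34145086-34145235, plus strand: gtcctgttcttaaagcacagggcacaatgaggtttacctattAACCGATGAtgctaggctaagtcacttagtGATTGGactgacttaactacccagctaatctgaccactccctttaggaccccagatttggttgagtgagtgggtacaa
H2-DMb1, chr17:34153093-34153122, plus strand: CCTAGTAACtgatgatgctaggctgattca
H2-Aa, chr17:34287824-34287973, minus strand: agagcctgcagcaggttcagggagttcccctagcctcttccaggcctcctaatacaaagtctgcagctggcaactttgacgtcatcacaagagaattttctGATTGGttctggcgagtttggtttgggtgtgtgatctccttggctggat

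In H2-Oa the first X spelling began 80 bases before the RefSeq start and the Y box 36 bases further on. H2-DMb1 held the same pair at the same distance of 36 bases, from position -98 to position -62, and H2-Ob, printed as the partner chain of DO, held it at 33 bases. Positions are counted from the RefSeq start, with negative values before it. The second X spelling stood 30 bases before the Y box in both H2-DMb1 and H2-DMb2 and 29 bases before it in H2-Eb1. H2-Aa held the Y box at -49, but neither X spelling at 20 to 40 bases before it. Both H2-DMa windows lie before the start that the files give for this gene, at 34122832 and 34125518, and held no such pair. Among all 32851 windows, the first X spelling was found in 47.4% and the Y box in 16.1%, so either alone is common. The first X spelling followed by a Y box 20 to 40 bases on, on the same strand, was found in 0.484%, and the second followed by a Y box in 0.0304%, which is 10 windows. Of those 10 windows, 4 belonged to H2-DMb1, H2-DMb2, H2-Eb1 and H2-Ob. The second spelling was added after the data had been seen, so this count is no test. Letters in a window are a description and do not show that a factor binds there. The windows of H2-DMb1 and H2-DMb2 were identical at 84.2% of 247 aligned bases, and the level of H2-DMb1 per kb of exon was 8.14-fold that of H2-DMb2 in library 1 and 10.3-fold in library 2.

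Of the 9 genes, 7 lie in the class II region of chromosome 17, interleaved with genes of other function, and every one of the 7 had more CPM in library 2, H2-Oa and H2-DMb2 by less than the counting error and not relative to genes of like length and GC content. Of all counted genes, 38.5% had more CPM in library 2. Of 16 genes listed in the region, these 7 included, 14 were counted, 11 of them with more CPM in library 2 and 3 with less. Only Brd2 was past 2-fold, with a log2 ratio of -1.36, beside 5.74% of all counted genes past 2-fold higher and 25.9% lower. Relative to genes of like length and GC content, the 3 genes with less turned to 0.30 for Brd2, 0.24 for Tap1 and 0.66 for Tap2. The region runs from H2-Oa through the DM genes at 42.8 to 67.9 kb from the start of H2-Oa to H2-Ab1, H2-Aa and H2-Eb1 at 170.9 to 223.9 kb. Between these blocks lie the immunoproteasome genes Psmb8 and Psmb9 and the peptide transporter genes Tap1 and Tap2, which serve class I presentation. Per kb of exon, Psmb8 had 47.8 and 53.0 CPM, Tap2 had 30.0 and 27.1 CPM, and Brd2, a chromatin reader between H2-Oa and H2-DMa, had 25.7 and 10.0 CPM. Each of these neighbours was below H2-DMa, H2-DMb1, H2-Ab1, H2-Aa and H2-Eb1 per kb in both libraries. Beyond H2-Eb1 lie H2-Eb2 and H2-Ea-ps, with at most 1 count, and Btnl2, a butyrophilin-like gene, with 13 and 27 counts.

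**Figure D2:**
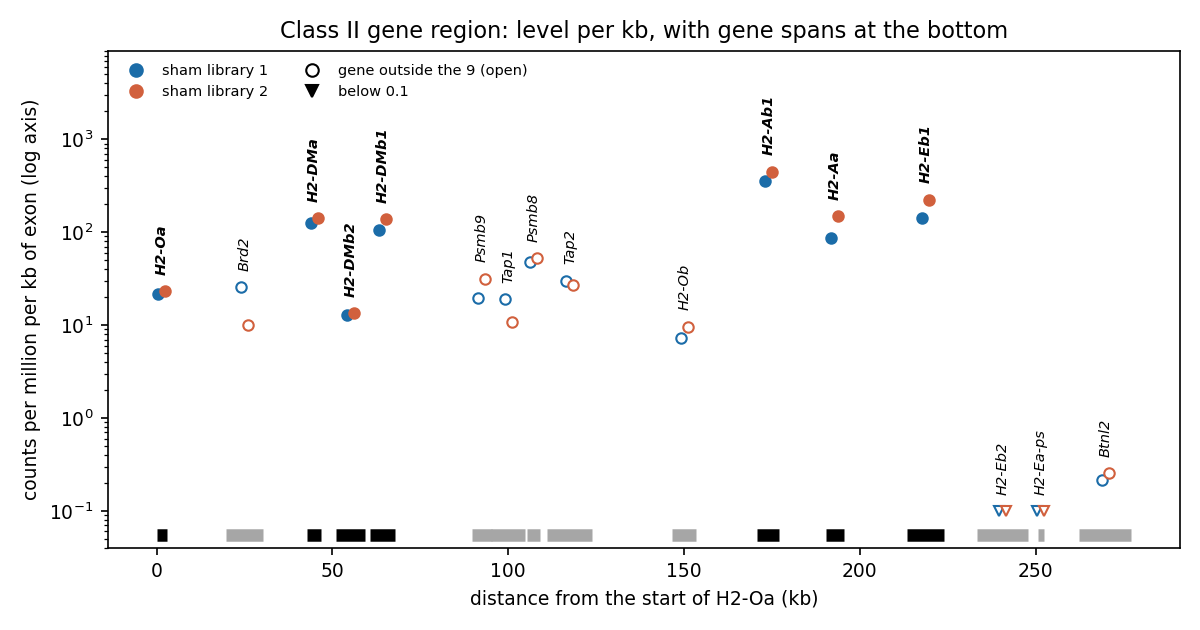
Class II region of chromosome 17, with distance from the start of H2-Oa (kb) across and CPM per kb of exon (log axis) upward for sham library 1 and sham library 2. Filled points are class II genes among the 9, open points are other genes, triangles are values below 0.1, and the strip at the bottom shows gene spans. The highest point is H2-Ab1 at 355 and 450 CPM per kb, and the last genes after H2-Eb1 lie near or below the bottom of the axis.

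Cd74 and Ciita lie outside this region and were the genes of the 9 with less CPM in library 2. Cd74, the invariant chain (chromosome 18, 60803848 to 60812646, plus strand), had 31187 and 39199 counts, or 1334 CPM (1319 to 1349) and 953 CPM (943 to 962) and 1143 ± 269 CPM (SD, n = 2). Library 1 was thus the higher one by 1.40-fold, the opposite order to the chains that Cd74 protects. Its span holds the microRNA gene Mir5107, with 3 counts and 1 count. Ciita, the class II transactivator (chromosome 16, 10480059 to 10528418, plus strand), had 201 and 170 counts, or 8.60 CPM (7.45 to 9.87) and 4.13 CPM (3.53 to 4.80) and 6.36 ± 3.16 CPM (SD, n = 2). The counting intervals of Ciita did not overlap, and library 1 was higher by 2.08-fold. Part of its span is shared with Dexi on the opposite strand, which had 460 counts in the first library and 75 in the second. Whether reads of one gene were counted for the other was not tested, and the strand setting is not given in the sources used here.

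Levels of different genes were compared only after division by the length of the merged exons, as CPM per kb. In both libraries the order began with Cd74, H2-Ab1 and H2-Eb1 and ended with H2-Oa, H2-DMb2 and Ciita. Cd74 had 794 and 567 CPM per kb (681 ± 160.5, SD, n = 2), at the 99.7th and 99.4th percentile of counted genes. H2-Ab1 had 355 and 450 CPM per kb (402 ± 67.3), and both libraries of H2-Ab1 were below both of Cd74. H2-Eb1 followed with 141 and 225 CPM per kb (183 ± 59.2), H2-DMa with 127 and 142 (135 ± 10.8), H2-DMb1 with 106 and 138 (122 ± 22.8) and H2-Aa with 87.7 and 149 (118 ± 43.1). The libraries of each neighbouring pair in this order overlapped, so neighbours could not be ranked beyond the spread between mice, whereas both libraries of H2-Eb1 were above both of H2-DMb1. With only the exons inside the span of the deposited gene models, H2-Eb1, H2-DMa and H2-DMb1 kept this order with no overlap. H2-Oa had 21.5 and 23.4 CPM per kb and H2-DMb2 13.2 ± 0.321, and the libraries of this pair did not overlap. Ciita had 0.902 and 0.433 CPM per kb, at the 20.9th and 15.4th percentile, and H2-DMb2 was above it by 14.4-fold and 31.0-fold. The coactivator was therefore the lowest of the 9 in each mouse while the classical chains that depend on it ranked between the 96.1st and 99.3rd percentile. With the longest transcript in place of merged exons, H2-Ab1 had 752 and 953 CPM per kb against 946 and 676 for Cd74, so the order of these 2 genes depends on the length that is used.

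Ratios of partner genes within a library do not depend on how the libraries are scaled. H2-Aa had 0.247 of the level per kb of H2-Ab1 in library 1 and 0.330 in library 2, so the alpha and beta chain of I-A were not at equal level in either mouse. For DM, the level per kb of H2-DMa was 1.07 and 0.940 times that of H2-DMb1 and H2-DMb2 together, close to equal in both. H2-Oa had 0.169 and 0.164 of the level of H2-DMa, the ratio that differed least between the mice. Cd74 stood at 2.24 times H2-Ab1 in library 1 and 1.26 times in library 2. Ciita stood at 0.00254 of H2-Ab1 in library 1 and 0.000963 in library 2. That ratio sets a longest transcript of 6007 bases beside one of 1212 bases, and the difference between the libraries depended on length. Genes of like length and GC content had a median log2 ratio of -1.73 for Ciita and 0.01 for H2-Ab1. The alpha to beta ratio of DM depended on the exon length taken and was 1.54 and 1.35 with the longest transcripts.

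Between the 2 mice, the log2 ratio of library 2 over library 1 ran from -1.06 for Ciita to 0.76 for H2-Aa, with a median of 0.16 over the 9 genes beside -0.26 over all counted genes. It was 0.76 for H2-Aa (95% counting interval 0.73 to 0.80), 0.67 for H2-Eb1 (0.63 to 0.71), 0.38 for H2-DMb1 (0.33 to 0.44) and 0.34 for H2-Ab1 (0.32 to 0.37). For H2-DMa it was 0.16 (0.13 to 0.20), and for H2-Oa (0.12, -0.01 to 0.26) and H2-DMb2 (0.05, -0.10 to 0.20) the interval included 0. Cd74 had -0.49 (-0.51 to -0.46) and Ciita -1.06 (-1.36 to -0.76). Relative to the median of all counted genes, the difference was 1.02 for H2-Aa, -0.22 for Cd74 and -0.79 for Ciita. No class II gene was higher in library 2 by more than 2-fold, beside 5.74% of all counted genes, and 1 of 9, Ciita, was lower by more than 2-fold, beside 25.9% of all counted genes. With library sizes by TMM, which move the median of all genes from -0.26 to -0.01, H2-Aa reached 1.01 and Ciita -0.81, so H2-Aa was past 2-fold and Ciita was not, beside 8.78% of all counted genes past 2-fold higher and 19.7% lower.

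**Figure D3:**
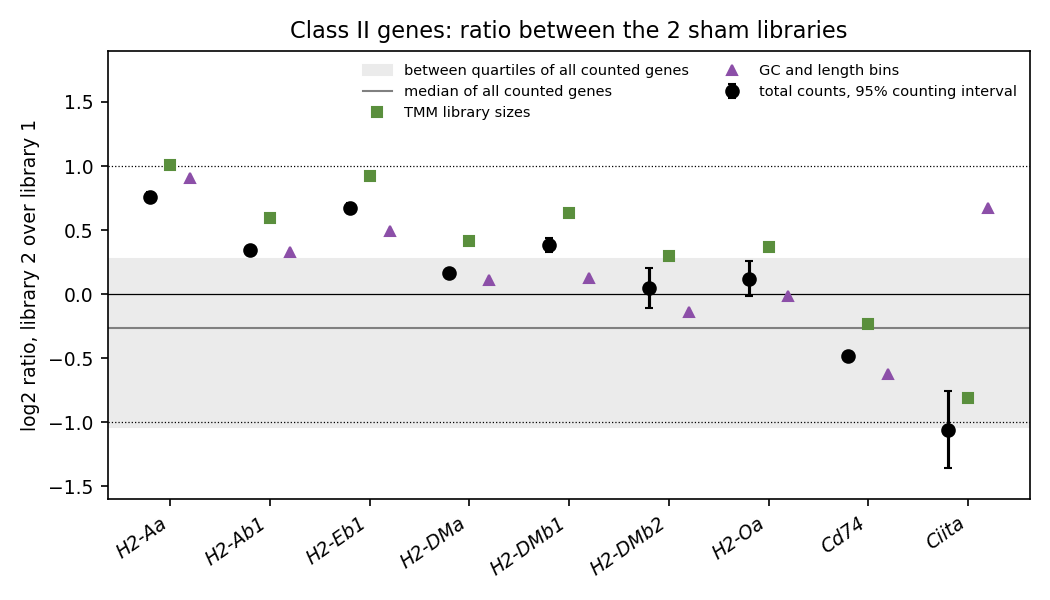
Log2 ratio of sham library 2 over sham library 1 for each class II gene, scaled by total counts (circles with 95% counting intervals), by TMM library sizes (squares) and relative to genes of like GC content and length (triangles). The grey band is the range between the quartiles of all counted genes, the grey line their median of -0.26, and dotted lines mark 2-fold. H2-Aa lies highest and Cd74 below 0 under each scaling, whereas Ciita lies at -1.06 by total counts and at 0.67 relative to like genes.

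Ciita was also set beside genes of its own length. Its longest transcript has 6007 bases, and by length alone the counted genes of 4970 to 6439 bases had a median log2 ratio of -0.96, close to that of Ciita. The 101 counted genes of like length (4974 to 6426 bases) and GC content had a median log2 ratio of -1.73, lower than the -1.06 of Ciita. Relative to those genes of like length and GC content Ciita had a log2 ratio of 0.67, so its direction turned. The log2 ratio of Cd74 moved the other way, to -0.62, because the 203 genes of its bin had a median of 0.14. H2-Oa fell in the same bin as Cd74 and came to -0.02, and H2-DMb2 came to -0.14. The classical chains kept positive ratios, 0.91 for H2-Aa, 0.49 for H2-Eb1 and 0.33 for H2-Ab1. The cause of the dependence on length was not tested.

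**Figure D4:**
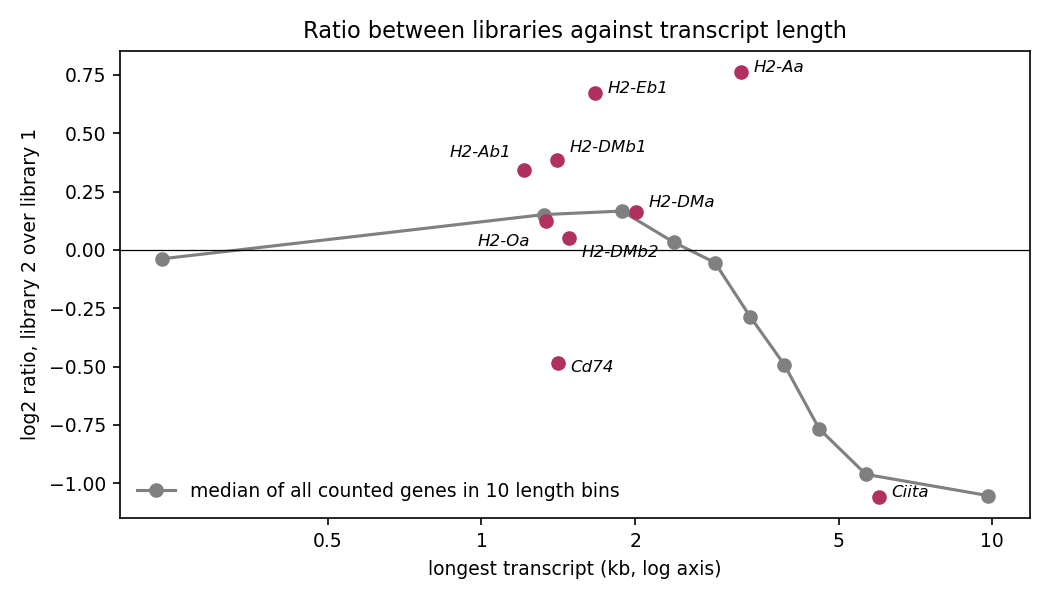
Log2 ratio of sham library 2 over sham library 1 against the longest transcript (kb, log axis) for the 9 class II genes, with the median of all counted genes in 10 bins of length as a grey line. Ciita lies near the line at long lengths, where the median falls to -1.05, while Cd74 lies below it and H2-Aa and H2-Eb1 above it.

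Factors that act on class II promoters were listed together with the interferon-γ receptor chains and their kinases, and all were present in both libraries. This list had a median log2 ratio of -0.62, or -0.11 relative to genes of like length and GC content. All 15 genes of this list were counted, 5 had more CPM in library 2 and 10 had less, beside 38.5% of all counted genes with more. None was past 2-fold higher and 2 were past 2-fold lower, beside 5.74% and 25.9% of all counted genes. Rfx5, a subunit of the RFX complex that binds the X box and holds the coactivator, had 317 and 122 counts, or 13.6 and 2.97 CPM, and a log2 ratio of -2.19 (-2.51 to -1.89). Relative to genes of like length and GC content Rfx5 had -1.33, so unlike Ciita it stayed lower in library 2. The RFX subunits Rfxap and Rfxank had log2 ratios of -0.62 and -0.16. Among the NF-Y subunits, which bind the Y box, Nfya had -0.62, Nfyb 0.96 and Nfyc 0.10. Spi1, which encodes the myeloid factor PU.1, had 700 and 807 CPM, and its partner Irf8 had 23382 and 24288 counts, a log2 ratio of -0.76. On the interferon-γ pathway, the main inducer of Ciita, the receptor chain gene Ifngr1 had 1724 and 1946 CPM, while Jak1, the kinase on the receptor, was the other gene past 2-fold lower at -1.44, and at -0.52 relative to genes of like length and GC content.

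Genes that process invariant chain and antigen, most of them proteases, took a larger share of the counts than the class II genes. All 7 were counted and summed to 30866 CPM (library 1) and 27581 CPM (library 2). Their median log2 ratio was -0.37 beside -0.26 over all counted genes. Relative to genes of like length and GC content it was 0.21, so its direction turned. None was past 2-fold, beside 5.74% of all counted genes past it higher and 25.9% lower. Ctss, the cathepsin that makes the last cut of the invariant chain, had 9388 and 11744 CPM, a log2 ratio of 0.32. Lgmn, the asparaginyl endopeptidase that opens antigens, had 4508 and 2544 CPM, a log2 ratio of -0.83. Per kb of exon, Ctss stood at 6913 and 8648 CPM, above Cd74 in each library. Cathepsin S was thus the gene of this list with the highest level per kb in both mice.

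Of 8 genes for class II turnover and co-stimulation, 7 were counted, with a median log2 ratio of 0.38 beside -0.26 over all counted genes. That median was 0.08 relative to genes of like length and GC content. Of these 7, 1 was past 2-fold higher and 1 past 2-fold lower, beside 5.74% and 25.9% of all counted genes. Cd86, a ligand that T cells need beside the class II signal, had 489 and 635 CPM, and Cd83, which protects surface class II from removal, had 377 and 398 CPM. March1, a ubiquitin ligase that removes surface class II, had 77.6 and 118 CPM. March8, a related ligase, had 47.6 and 12.9 CPM, a log2 ratio of -1.88. Cd40, the receptor for T cell help, was the gene past 2-fold higher, at 3.46 and 7.32 CPM, and Pdcd1lg2, an inhibitory ligand, had 0 and 6 counts. Cd80 and Cd274, a ligand for activation and a ligand for inhibition of T cells, were counted in both libraries, at 13.9 and 24.9 CPM and at 13.2 and 10.9 CPM.

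Genes of MHC class I presentation, the pathway for proteins made inside the cell, had abundant surface chains and a low coactivator too. All 10 were counted and summed to 5245 and 7422 CPM, with a median log2 ratio of 0.04 beside -0.26 over all counted genes. That median was 0.25 relative to genes of like length and GC content. Of the 10, 0 were past 2-fold higher and 2 past 2-fold lower, beside 5.74% and 25.9% of all counted genes. B2m, the shared light chain, had 2101 and 3438 CPM, and the heavy chain gene H2-D1 had 1420 and 2282 CPM, log2 ratios of 0.71 and 0.68. Nlrc5, the class I counterpart of Ciita, had 168 and 119 counts, or 7.19 and 2.89 CPM, a log2 ratio of -1.31. Relative to genes of like length and GC content Nlrc5 came to 0.07, whereas Ciita turned to 0.67. Erap1, which trims peptides for class I, was the other gene past 2-fold lower.

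Markers of other cells that present on class II were measured beside these genes. Among the 10 B cell markers, 4 were counted, Ighm, Ighd, Cd79b and Cd22. Cd79b had 1219 and 2280 counts, or 52.1 and 55.4 CPM, Ighd had 406 and 978 counts, and Cd22 had 307 and 322 counts. Of those not counted, Pax5, Ebf1 and Fcer2a were at 0 in library 1 and had 1, 7 and 1 counts in library 2. Ms4a1 had 4 and 21 counts. The list summed to 600 and 809 CPM, of which Ighm gave 517 and 720 CPM. The 9 dendritic cell markers summed to 141 and 120 CPM, the highest being Cd209a at 52.4 and 49.1 CPM. Of them 8 were counted, and Clec9a had 9 and 10 counts. Of the 8 dendritic cell markers counted, 2 had more CPM in library 2 and 6 had less. Their median log2 ratio was -0.22, or 0.002 relative to genes of like length and GC content. Their gate gene Itgax, for CD11c, had 332 and 162 counts. The 10 border macrophage markers, all counted, summed to 1187 and 571 CPM, with 7 lower and 3 higher in library 2 and a median log2 ratio of -0.36 beside -0.26 over all counted genes. Their sum was carried by Stab1, a scavenger receptor at 455 and 116 CPM, F13a1, a coagulation factor chain at 225 and 64.7 CPM, and Mrc1, the mannose receptor at 190 and 42.7 CPM, whereas Clec12a, a lectin receptor, had 20.4 and 115 CPM. Relative to genes of like length and GC content, Stab1 came to a log2 ratio of 0.01, F13a1 to -1.50, Mrc1 to -1.63 and Clec12a to 2.50. The median of the 10 markers was then -0.35. The 8 monocyte markers, all counted, summed to 901 and 3562 CPM, of which Chil3, a gene that neutrophil precursors also express, gave 455 and 2901 CPM. The 10 neutrophil markers were all past 2-fold higher in library 2, beside 5.74% of all counted genes, and summed to 4320 and 59060 CPM. With totals that left out their counts, a setting added after the data were seen, the log2 ratio was -0.40 for Cd74 and 0.84 for H2-Aa, and none of the 9 changed sign. The part of B cells, dendritic cells, border macrophages, monocytes and neutrophils in the class II levels was not tested.

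**Figure D5:**
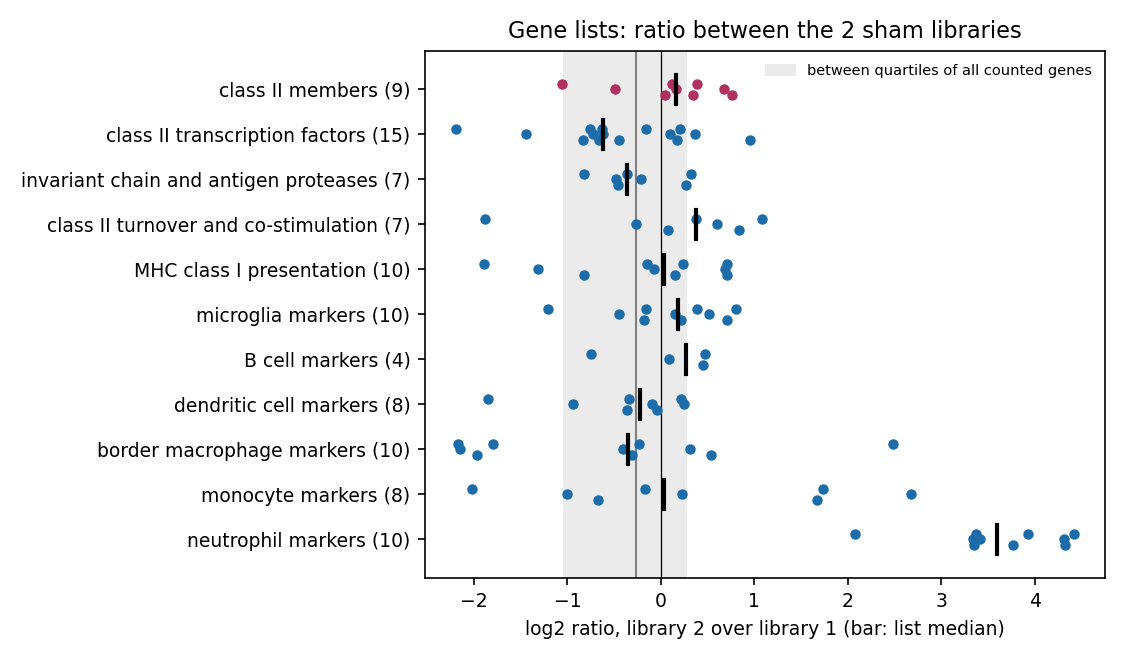
Log2 ratio of sham library 2 over sham library 1 for each counted gene of 11 lists, with the number of counted genes in brackets, a black bar at each list's median, a grey band between the quartiles of all counted genes and a grey line at their median. The class II genes spread from -1.06 to 0.76, the neutrophil markers lie at 2.08 to 4.42, and several border macrophage markers lie near -2.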

How the data were processed

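RNA-seq of sorted microglia was analysed in the 2 sham libraries, which form 1 group by their titles. cDNA was made with the SMART-Seq HT kit and libraries were tagmented and sequenced as pairs of 75 bases. The authors mapped reads to GRCm38 with HISAT2 and used HTSeq to assign them to Ensembl genes, and what they deposited are raw counts with no normalization. Versions, annotation release and strand setting are not given in the sources used here.

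Symbols were matched for 53620 of 53801 identifiers. CPM are counts per 1000000 counts on all genes, and lengths came from GENCODE M21. Gene starts are printed from 1. Ratios between libraries have 95% Clopper-Pearson intervals, counts exact Poisson intervals and shares Wilson intervals. The GC and length value is a gene's log2 ratio minus the median of genes in the same bin, with 10 bins of each. With 2 libraries of 1 group no test was run, and a value past 2-fold describes these libraries. The class II genes and the 13 lists were chosen with earlier results of these data known. Named are the 9 class II genes and the genes that a sentence on a list needs, and 3 genes of the lists are not reported here by name. The steps were tested on simulated data. Alternatives were scaling by edgeR 4.0.16 (TMM) and DESeq2 1.42.0, other filters and other exon lengths. A planned comparison of protein sequences was not run. Python 3.11.15, numpy 2.4.6, scipy 1.17.1, pandas 2.3.3, matplotlib 3.10.9 and R 4.3.3 were used.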

Additional observations from a re-analysis of the deposited data

How the results depend on the processing

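The summed level of the 9 class II genes was 2568 CPM without Cd74, in place of 3711 CPM. The SD of the sum over the 2 libraries was 257 with total counts, 713 with TMM and 759 with DESeq2 size factors. Their median log2 ratio between the libraries was 0.41 with TMM, 0.44 with DESeq2 size factors, 0.25 with totals without the neutrophil markers and 0.13 relative to genes of like GC content and length. The number of class II genes past 2-fold went from 1 to 0 in the latter 2 settings. It stayed at 1 with TMM and DESeq2, but the gene was then H2-Aa in place of Ciita. The log2 ratio of Ciita reversed to 0.67 relative to genes of like GC content and length. With the longest transcript as length, the mean ratio per kb was 0.161 for H2-Aa to H2-Ab1, 0.247 for H2-Eb1 to H2-Ab1, 0.984 for Cd74 to H2-Ab1, 1.45 for H2-DMa to the DM beta chains and 0.102 for H2-Oa to H2-DMa. With exons inside the span of the deposited gene models, a setting added after the data were seen, it was 0.563 for H2-Eb1 to H2-Ab1, 1.31 for H2-DMa to the DM beta chains and 0.128 for H2-Oa to H2-DMa. Of the remaining values, 37 moved by more than the spread between replicates or the counting interval with no change of a sign that the counting interval had fixed, and 79 did not. The 79 include the level of each gene with 1 library left out, a value that could not move by this measure. Leaving out either library gives the other one's value, 3529 or 3893 CPM for the summed level, which says nothing about stability. No paired analysis was possible because both libraries belong to 1 group. Depth limits the genes under 10 counts, and 2 mice limit every mean.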
